A study of Homo sapiens with 4 samples.

Results

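The genes described here encode 10 secreted ligands of the TGF-beta superfamily, namely the activin and inhibin subunits INHBA, INHBB and INHBE, the bone morphogenetic proteins BMP2, BMP4 and BMP6, the growth and differentiation factors GDF6 and GDF15, and TGFB1 and TGFB2. Every probe whose name in the scanner files is one of these symbols, or whose accession is a RefSeq transcript of one of them, was taken whatever its signal, which gave 12 of the 50238 probes on the array and 10 of its 30970 gene names. GDF6 and TGFB2 each had 2 probes and the other ligands 1 each. The expression data came from A549, an established human lung adenocarcinoma cell line, and asked which transcripts had changed early in the response to embelin, a plant benzoquinone with a long alkyl chain. The 2 control samples were untreated and the 2 embelin samples received 15 µM, all were collected at 4 h, and all cultures had been moved to medium low in serum before the treatment. The labels name no vehicle for the controls, and nothing in the sources used here says that replicates came from separate cultures, so p-values measure the spread between these samples, which may be technical. The cells were 1 line at 1 dose and 1 time, and fewer cells that carry a transcript cannot be told apart here from less transcript per cell.

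Each sample was hybridized to 1 single-dye array of 1 slide. The control arrays lay at positions 4 and 1 and the embelin arrays at positions 2 and 3. Between 50.3% and 66.7% of probes were well above background per array, with the higher shares on control replicate 1 and embelin replicate 2, so that each group held 1 array of either kind. All values below are normalized log2 signals, in which 1 unit is a doubling. Apart from the summed marker levels, they are compared only within a probe. Of the marker lists, 6 of 6 epithelial genes and 6 of 6 genes of quinone, aldehyde and ketone metabolism typical of A549 were well above background on all 4 arrays, against 1 of 5 alveolar type II, 1 of 6 fibroblast, 2 of 5 leukocyte and 0 of 3 endothelial genes.

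Ligands of this superfamily are made as large precursors, cut by proprotein convertases and secreted as disulphide-linked dimers, and a dimer of inhibin beta subunits is an activin. They bring together type I and type II receptor kinases, and the type I receptor phosphorylates SMAD2 and SMAD3 for activins and TGF-betas or SMAD1, SMAD5 and SMAD9 for BMPs. GDF15 is a distant relative that signals through GFRAL and the kinase RET and is a marker of cellular stress. In lung epithelium the family is best known for the arrest of growth by TGF-beta and for the part of BMP4 in branching of the embryonic airway.

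Of the 10 ligand genes, 4 differed between embelin and control past the test. INHBA, BMP6 and GDF15 rose, BMP4 fell, and the remaining 5 tested genes did not pass the threshold of 0.05 for limma's adjusted p. Across the array this test called 320 of 17649 genes, or 1.81%, with 221 higher (1.25%) and 99 lower (0.561%), and over single probes it called 1.08%, among them the same 4 ligands. The ligands were chosen with earlier results of these data known, so the distance between their count and this background is a description. INHBE was too dim to be tested. INHBA passed the filter on dim probes only through its embelin arrays, and BMP4 and GDF6 only through their control arrays. The median change of the 9 tested ligands was 0.07 in log2 against -0.06 over all genes tested. Their median size of change without regard to sign was 2.08, and that of all genes was 0.30, a distance that is likewise a description.

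The probes are single strands of 60 bases, and what they hybridize sets what each value can mean. The letters of 4 of them are shown because they lie in the coding part of the message, whereas those of the other ligands are named only. They are written 5′ to 3′ in lower case as the scanner files give them.
INHBA: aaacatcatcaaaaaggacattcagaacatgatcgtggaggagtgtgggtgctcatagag
BMP2: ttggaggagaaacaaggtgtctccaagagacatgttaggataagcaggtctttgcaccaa
BMP4: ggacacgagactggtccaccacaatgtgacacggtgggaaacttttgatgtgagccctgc
TGFB1: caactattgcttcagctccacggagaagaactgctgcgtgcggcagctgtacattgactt

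The plot of the 12 probes shows the value on each array, and the groups are then described in the order activins, BMPs, GDFs and TGF-betas.

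**Figure D1:**
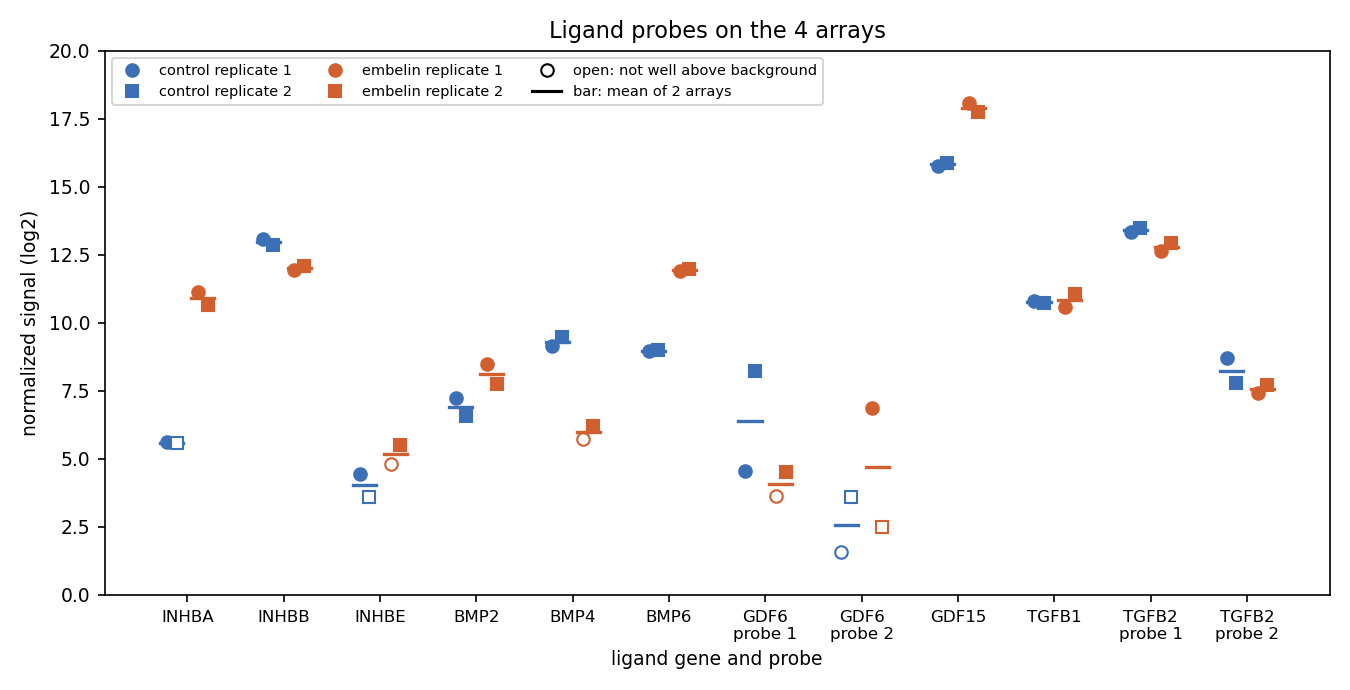
Normalized log2 signal (vertical axis) of each ligand probe (horizontal axis) on the 2 control arrays in blue and the 2 embelin arrays in orange, with circles for replicate 1, squares for replicate 2, open symbols for arrays on which the probe was not well above background and bars for the mean of 2 arrays. INHBA lies at 5.60 and 5.57 in control and at 11.14 and 10.66 with embelin, while the GDF6 probes scatter widely within a group.

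INHBA, which encodes the beta A subunit of activin A, showed the largest change of the 10 ligands. Its signal was 5.60 and 5.57 in control and 11.14 and 10.66 with embelin. On control replicate 2 the probe was not well above background, and its value lay under 5.85, the lowest signal on that array that was. Control replicate 1 had the probe well above background, with a lowest such signal of 3.83. The means were 5.59 ± 0.02 and 10.90 ± 0.34 (SD, n = 2 each), a difference of 5.31 in log2 with a standard error of 0.23 and a 95% interval from 4.68 to 5.94 (limma, adjusted p = 0.0204), or 39.6-fold. With another background correction, normexp on the unprocessed spot means, the log2 difference was 4.02.

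INHBB encodes the beta B subunit, found in activin B and inhibin B. Its signal was 13.07 and 12.85 in control and 11.94 and 12.08 with embelin. The embelin values lay below both control values, in the direction opposite to INHBA. The log2 difference was -0.95 with a standard error of 0.18 and a 95% interval from -1.45 to -0.46 (limma, adjusted p = 0.0934), 1.94-fold lower in embelin and not past the threshold. With a variance trend and robust fit in limma it passed, with an adjusted p of 0.0213. That fit called 566 genes higher and 495 lower, against 221 and 99 in the fit reported here. In the other 15 of 16 alternatives INHBB did not pass.

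INHBE encodes the beta E subunit, a liver activin whose gene is also known as a target of the stress factor ATF4. Its signal was 4.44 and 3.61 in control and 4.83 and 5.51 with embelin. Both embelin values were above both control values, but the probe was well above background only on control replicate 1 and embelin replicate 2. It was therefore not in the test. In a fit without the filter the log2 difference was 1.15 with a 95% interval from -0.25 to 2.54 (limma, adjusted p = 0.753).

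Among the BMPs, BMP6 rose and BMP4 fell. BMP6, a ligand known for inducing hepcidin and bone formation, gave 8.97 and 8.99 without and 11.89 and 11.98 with embelin. The probe was well above background on all 4 arrays, and the spread within either group was small against the distance between them. The means were 8.98 ± 0.01 and 11.94 ± 0.06 (SD, n = 2 each), with a log2 difference of 2.95, a standard error of 0.16 and a 95% interval from 2.52 to 3.39 (limma, adjusted p = 0.0204), or 7.74-fold.

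BMP4, which patterns the embryonic lung bud and many other tissues, gave 9.14 and 9.49 in control and 5.74 and 6.20 with embelin. The embelin values were far below the controls, and on embelin replicate 1 the probe was not well above background. The means were 9.31 ± 0.25 and 5.97 ± 0.32 (SD, n = 2 each), with a log2 difference of -3.34, a standard error of 0.25 and a 95% interval from -4.03 to -2.65 (limma, adjusted p = 0.0267), 10.1-fold lower. The size of this change also depended on the background correction, and with normexp it was -2.30.

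BMP2, the closest relative of BMP4 and an inducer of bone, gave 7.25 and 6.59 in control and 8.48 and 7.75 with embelin. Both embelin values exceeded both control values, but the arrays within each group lay further apart than the nearest values of the 2 groups. The means were 6.92 ± 0.47 and 8.12 ± 0.52 (SD, n = 2 each), with a log2 difference of 1.19, a standard error of 0.38 and a 95% interval from 0.17 to 2.22 (limma, adjusted p = 0.209), or 2.29-fold, and BMP2 did not pass the threshold. Between the 2 arrays with many probes above background the difference was 0.50, and between the 2 with fewer it was 1.89.

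GDF15, secreted under mitochondrial and endoplasmic reticulum stress and a known target of p53, gave 15.77 and 15.88 in control and 18.07 and 17.73 with embelin. The probe was well above background on all 4 arrays, and every embelin value was above every control value. The means were 15.82 ± 0.08 and 17.90 ± 0.24 (SD, n = 2 each), with a log2 difference of 2.08, a standard error of 0.20 and a 95% interval from 1.54 to 2.62 (limma, adjusted p = 0.0380), or 4.22-fold. GFRAL, the receptor of GDF15, was not well above background often enough to be tested.

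GDF6, a ligand of joint and eye development, did not pass on its kept probe, and its other probe was too dim to be tested. The probe kept for the test gave 4.56 and 8.22 in control and 3.65 and 4.52 with embelin, so that the control arrays were further from each other than the groups were. Its log2 difference was -2.31 with a 95% interval from -5.89 to 1.28 (limma, adjusted p = 0.420). It came to -4.14 without control replicate 1 and to -0.48 without control replicate 2. The other probe gave 1.57 and 3.59 in control and 6.87 and 2.51 with embelin, and it was well above background on embelin replicate 1 alone.

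The TGF-betas had the smallest differences among the tested ligands. TGFB1, the archetype of the family and a brake on epithelial growth, gave 10.80 and 10.72 in control and 10.60 and 11.07 with embelin. The groups overlapped, and TGFB1 was the only tested ligand for which they did. Its log2 difference was 0.07 with a 95% interval from -0.55 to 0.69 (limma, adjusted p = 0.902), an interval that leaves room for a change of either sign, and the difference was -0.16 without embelin replicate 2.

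TGFB2, the isoform known for its part in development of the heart and eye, was measured by 2 probes. The brighter probe gave 13.35 and 13.50 in control and 12.62 and 12.92 with embelin, a log2 difference of -0.65 with a standard error of 0.19 and a 95% interval from -1.18 to -0.12 (limma, adjusted p = 0.194), 1.57-fold lower. The other probe gave 8.70 and 7.78 in control and 7.43 and 7.72 with embelin, a log2 difference of -0.66 with a standard error of 0.37 (limma, adjusted p over probes = 0.439). On both probes the embelin values lay below both control values, and neither passed the threshold.

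Of the 9 tested ligands, 6 differed by at least 2-fold, as did 12.6% of all tested genes, and 7 had an unadjusted p under 0.05, as did 19.5% of all tested genes. The embelin arrays lay wholly above the controls in 4 of the 9 and wholly below in 4, against 21.1% and 30.7% of genes with a value on every array, or 51.8% in both directions. INHBA, BMP4 and GDF6, all among the 6 past 2-fold, entered the test only through the group where their signal was high. The ligands were also chosen with earlier results known, so nothing is read from these shares. In order of change from highest to lowest the genes were INHBA, BMP6, GDF15, BMP2, TGFB1, TGFB2, INHBB, GDF6 and BMP4. Only the interval of INHBA lay apart from that of its neighbour in this order, the intervals of the other neighbours overlapped, and differences between genes were not tested.

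**Figure D2:**
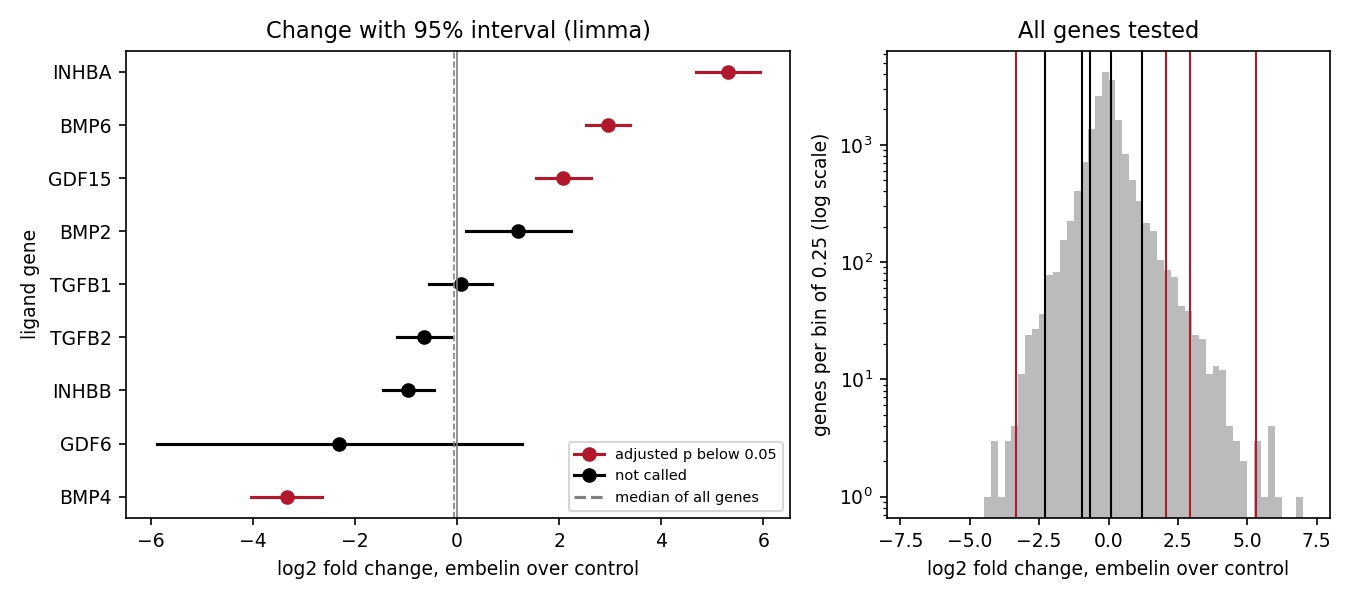
Left, log2 fold change of embelin over control (horizontal axis) for each tested ligand (vertical axis), with bars for limma's 95% interval, red for genes past an adjusted p of 0.05 and a dashed line at the median of all genes. Right, the number of genes per bin of log2 fold change on a log scale over all 17649 genes, with vertical lines at the 9 ligands in the same colours. INHBA lies at 5.31 in the far right tail and BMP4 at -3.34 in the far left tail.

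The groups of the 4 called ligands did not overlap, so any control and embelin pair had to give the same direction. Pairs of arrays of like background therefore show only the size of the difference. The log2 differences between the arrays with more and between those with fewer probes above background were 5.05 and 5.57 for INHBA, 3.01 and 2.90 for BMP6, 1.96 and 2.19 for GDF15, and -2.94 and -3.74 for BMP4. None of the 4 calls was kept with any 1 array left out, with the array position, the replicate number or the array background in the fit, without the filter on dim probes, or in the methods' t-test, where no gene of the array passed after adjustment. The plot of the alternatives shows the size of each change in those fits.

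**Figure D3:**
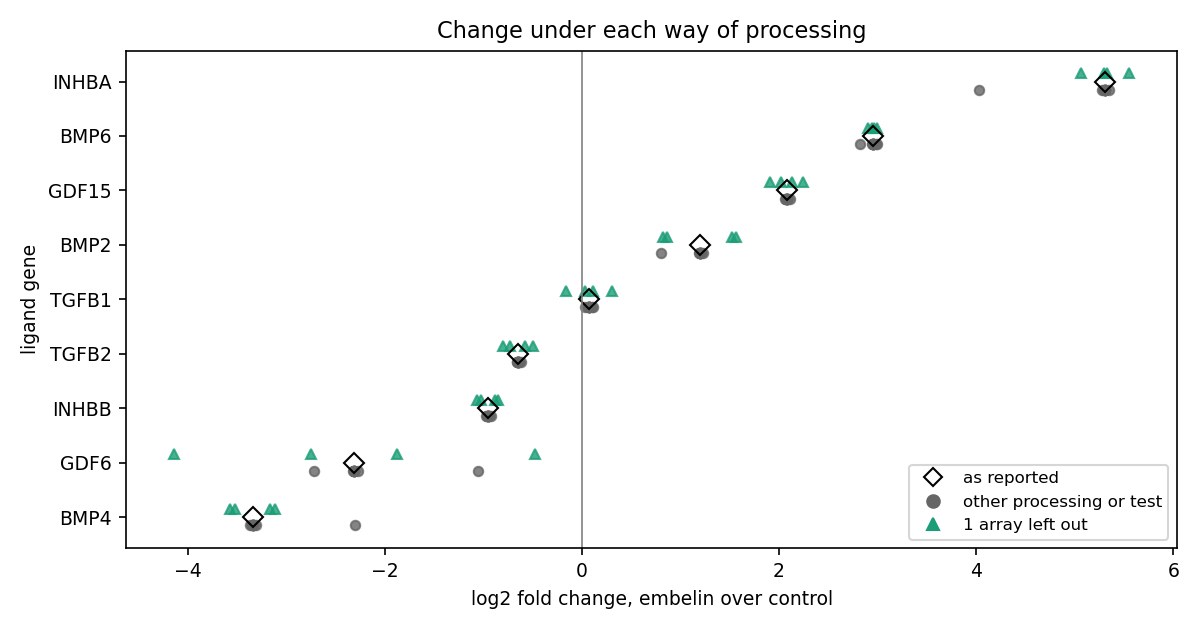
Log2 fold change of embelin over control (horizontal axis) for each tested ligand (vertical axis) as reported (open diamonds), under other processing or tests (grey circles) and with 1 array left out (green triangles). BMP6 stays between 2.82 and 2.997, INHBA falls to 4.02 and BMP4 shrinks to -2.30 with normexp, and GDF6 ranges from -4.14 to -0.48.

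The sequence before a transcription start is shown for the 4 called ligands. For INHBA and BMP4 the annotated gene extends further upstream, to base 41705406 and base 53956891, so both of these stretches lie inside the gene. The probes do not tell which start was used. Each is the 250 bases upstream of the start in RefSeq's annotation of GRCh38.p14, 5′ to 3′ on the strand of the gene, with any TATAAA in capitals. The stretches lie at chr7:41703091-41703340 on the minus strand for INHBA, chr14:53955051-53955300 on the minus strand for BMP4, chr6:7725849-7726098 on the plus strand for BMP6 and chr19:18385908-18386157 on the plus strand for GDF15.
INHBA: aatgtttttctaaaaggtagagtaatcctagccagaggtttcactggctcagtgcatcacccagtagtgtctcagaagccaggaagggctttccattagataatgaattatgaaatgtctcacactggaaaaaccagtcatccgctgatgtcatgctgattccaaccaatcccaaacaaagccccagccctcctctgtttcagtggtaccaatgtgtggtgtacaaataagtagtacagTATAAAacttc
BMP6: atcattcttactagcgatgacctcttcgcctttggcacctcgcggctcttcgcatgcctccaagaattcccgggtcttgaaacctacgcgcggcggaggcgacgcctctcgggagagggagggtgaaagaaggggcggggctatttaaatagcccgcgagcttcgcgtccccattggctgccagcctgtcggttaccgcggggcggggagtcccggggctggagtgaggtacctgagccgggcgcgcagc
GDF15: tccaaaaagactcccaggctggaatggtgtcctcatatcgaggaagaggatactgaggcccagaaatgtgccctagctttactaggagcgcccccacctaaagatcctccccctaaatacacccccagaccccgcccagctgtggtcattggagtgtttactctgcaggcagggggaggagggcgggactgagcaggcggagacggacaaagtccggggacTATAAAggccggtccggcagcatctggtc
BMP4: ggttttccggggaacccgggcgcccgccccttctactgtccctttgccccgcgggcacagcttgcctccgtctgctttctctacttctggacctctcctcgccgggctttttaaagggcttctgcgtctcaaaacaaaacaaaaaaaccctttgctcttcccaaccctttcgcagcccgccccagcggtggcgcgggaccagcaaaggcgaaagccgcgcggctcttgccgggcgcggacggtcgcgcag

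These promoters differed in composition, from 42.8% G and C in INHBA to 58.4% in GDF15, 63.6% in BMP4 and 64.4% in BMP6. The RefSeq table held windows of 300 bases, from 250 before to 50 after the start, for 7 of the 10 ligands. TATAAA was found in 3 of the 7, at base -29 in GDF15 and TGFB2 and at base -11 in INHBA, and in 12% of the 27305 windows of the table. This motif was added after the windows had been looked at. The ATF4 and C/EBP element TGATGNAA (3.67% of all windows), the cyclic AMP element TGACGTCA (1.98%), the AP-1 element TGANTCA (7.76%) and the SMAD palindrome GTCTAGAC (0.201%) were found in 0 of the 7 windows on either strand. The core of the hypoxia element, ACGTG or GCGTG, was found in BMP6, TGFB1 and TGFB2 and in 48.4% of all windows, and its matches may overlap each other. A match in this window is a description of its letters.

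The genes whose 4 values followed INHBA and BMP4 most closely were found by the root mean square difference of log2 signals, each gene centred on its own mean, over 4 arrays and 17289 genes. For INHBA they were ANGPTL4, an inhibitor of lipoprotein lipase (0.18), the stress factor ATF3 (0.28), the stromelysin MMP10 (0.34), NDRG1 (0.34) and the hexokinase HK2 (0.35). Their log2 differences were between 4.69 for NDRG1 and 5.77 for HK2, and the MMP10 probe was well above background on neither control array. For BMP4 they were the transcription factors NFE2 (0.17) and SALL2 (0.19), SKIDA1 (0.21), the zinc finger gene ZBED2 (0.25) and the exchange factor VAV3 (0.27). Their log2 differences were between -3.74 for VAV3 and -3.06 for SALL2, and that of ZBED2 did not pass (limma, adjusted p = 0.0547). SKIDA1 was well above background on neither embelin array, and NFE2 and ZBED2 were on 1 of the 2. The 4 points behind each likeness are the same 2 control and 2 embelin arrays that gave the differences, so it is a description.

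Beyond the ligands, 102 other genes of the pathway were on the array, 63 of them bright enough to be tested. Of these 0 were called higher and 3 lower (4.76%, against 1.81% of all genes), with a median log2 difference of 0.03. The 3 were the co-receptor TGFBR3, the pseudoreceptor BAMBI and the transcription factor ATOH8. TGFBR3 and ATOH8 passed the filter on dim probes only through their control arrays, where they are high, so nothing is read from this share. The other 60 did not pass the threshold, and their share was not tested against that of the ligands.

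**Figure D4:**
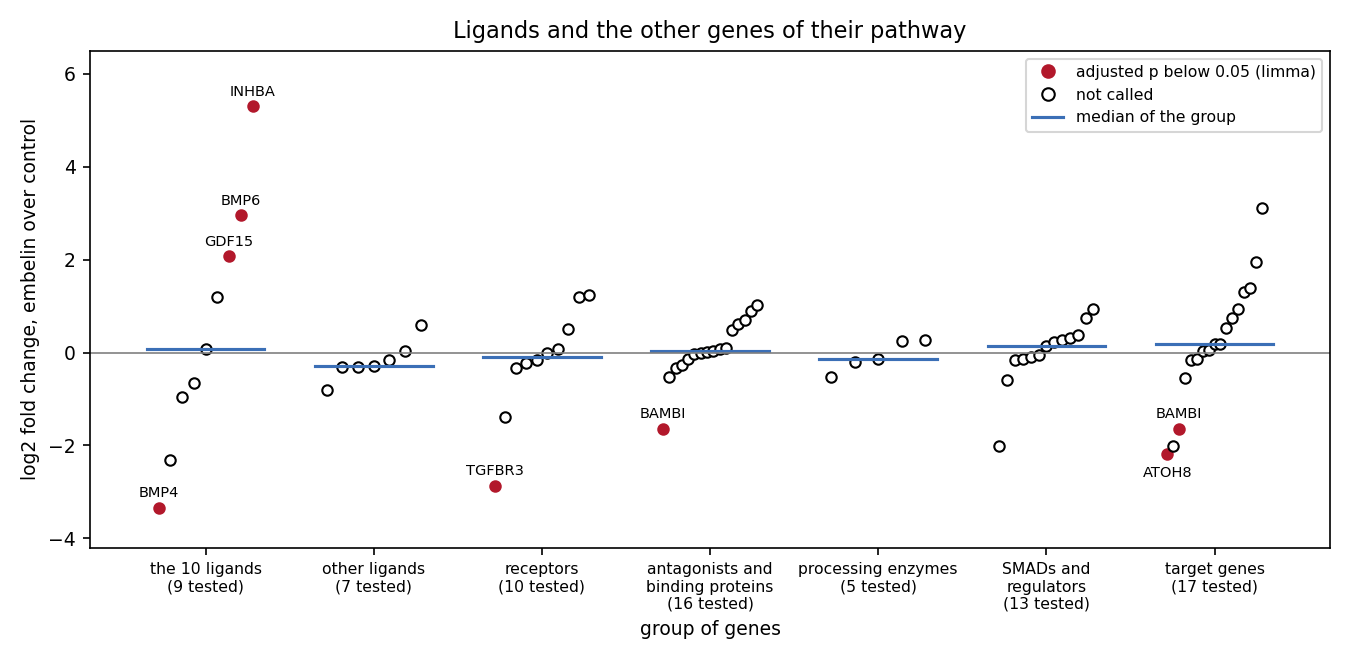
Log2 fold change of embelin over control (vertical axis) for the tested ligands and 6 groups of other pathway genes (horizontal axis), with red points for an adjusted p under 0.05 (limma), open points for other genes and a blue bar for the median of each group. BAMBI stands in 2 groups, and the group medians lie between -0.29 for the other ligands and 0.18 for the target genes.

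Among 23 other ligands, 7 were tested and 0 called in either direction, with a median of -0.29. The largest were BMP7, another osteogenic BMP, at -0.81 (limma, adjusted p = 0.258) and INHBC, the beta C subunit, at 0.58 (limma, adjusted p = 0.308). A second INHBC probe went the other way, at -0.69.

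Of 19 receptors, 10 were tested, with 0 called higher and 1 lower. TGFBR3, betaglycan, presents TGF-beta2 and inhibin to the signalling receptors. Its signal was 8.29 and 7.85 in control and 4.90 and 5.51 with embelin, with the probe not well above background on 1 of the embelin arrays. The log2 difference was -2.87 with a standard error of 0.30 (limma, adjusted p = 0.0451), and it was -1.63 with normexp. TGFBR2, the type II TGF-beta receptor, stood just outside the threshold at -1.40 with a standard error of 0.18 (limma, adjusted p = 0.0549). The type I receptor TGFBR1 stood at 1.25 with a standard error of 0.23 (limma, adjusted p = 0.0880).

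Of 25 extracellular antagonists and binding proteins, 16 were tested, with 0 called higher and 1 lower and a median of 0.02. BAMBI, a membrane protein that resembles a type I receptor without a kinase and blocks BMP, activin and TGF-beta signals, gave 14.80 and 14.78 in control and 13.18 and 13.12 with embelin. Both groups were tight and well apart, with a log2 difference of -1.64 and a standard error of 0.16 (limma, adjusted p = 0.0380). The activin antagonist FST stood at 1.02 with a standard error of 0.18 (limma, adjusted p = 0.0846), and its relative FSTL3 at 0.88 with a standard error of 0.21 (limma, adjusted p = 0.137).

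Of 7 processing enzymes, 5 were tested and 0 called, and the largest differences were -0.52 for the convertase PCSK6 and 0.27 for BMP1. Of 14 SMADs and SMAD regulators, 13 were tested and 0 called, with a median of 0.14. The inhibitory SMAD6 stood at -2.02 with a standard error of 0.34 (limma, adjusted p = 0.0803) and the SMAD repressor SKIL at 0.93 (limma, adjusted p = 0.149).

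Of 19 target genes, 17 were tested, with 0 called higher and 2 lower and a median of 0.18. Besides BAMBI, which is itself a target, the second was ATOH8, a helix-loop-helix factor induced by BMPs. It gave 7.09 and 6.90 in control and 4.56 and 5.07 with embelin, where 1 of the 2 arrays was well above background, a log2 difference of -2.18 with a standard error of 0.24 (limma, adjusted p = 0.0475). With normexp the difference was -0.95 and not called.

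Summed marker levels differed between the groups for some lists. Each is the log2 of the summed signals, with the brightest probe of a gene taken on each array, whether or not it was kept. The alveolar type II sum ran from 8.01 to 8.11 in control and from 8.30 to 9.41 with embelin, with 1 of 5 markers well above background on all 4 arrays. The fibroblast sum ran from 7.12 to 8.25 in control and from 8.03 to 10.06 with embelin, which overlap, and 1 of those 6 markers was well above background on all 4 arrays. The sum of the A549 list ran from 18.73 to 18.77 in control and from 18.60 to 18.62 with embelin. The epithelial sum ran from 18.70 to 18.87 in control and from 18.53 to 18.58 with embelin. The leukocyte and endothelial sums overlapped between the groups. The part of these lists in the ligand differences was not tested.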

How the data were processed

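For each of 4 arrays the authors deposited Cy3 intensities from the scanner software, which the file headers give as Feature Extraction 10.7.3.1, with background subtracted, array trends corrected and no normalization between arrays. The paper's methods name a shift to the 75th percentile, a 2-fold threshold and Student's test. The authors also deposited a table of probe values, which held the same intensities averaged over spots for nearly all probes.

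The deposited intensities were scaled to equal 75th percentiles, values under 1 were set to 1, and log2 was taken. Outlier spots were left out and spots of a probe averaged. Of 50238 probes, 28595 were named by accession in a current RefSeq gene table, 2341 through another probe of the same name and 19302 by the files. A probe entered the test if both arrays of either group had it well above background (26146 probes), and the brightest of a gene represented it. The test of embelin against control was limma 3.58.1 run under R 4.3.3, by lmFit and eBayes, where both groups shared 1 spread, and Benjamini-Hochberg adjustment over 17649 genes. An exact permutation test of 2 against 2 arrays cannot go below p = 0.333 and was not used. The number of arrays limits the precision, and no control spot, saturated spot or genome coordinate of the array entered a test. The fit was tested on simulated data.

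The alternatives were normexp (offset 50), quantile normalization, the deposited table, no filter, the methods' t-test, a filter on all 4 arrays, a robust eBayes with a variance trend, a replicate block, the mean over probes, array position and leaving out each array. A block for array background and a 75th percentile without outlier spots were chosen after seeing the data. Where leaving out an array left its group with 1, that array was assumed to vary like the other group. The ligands and all lists were chosen with earlier results of these data known. Named were all ligands, each pathway gene called, the 2 largest other changes of a list with fewer than 2 calls, and the 5 genes nearest in profile to the largest called rise and fall. Promoter windows are from RefSeq. A gene of the lists is counted but not reported here.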

Additional observations from a re-analysis of the deposited data

How the results depend on the processing

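Of the 9 tested ligands, 8 kept their direction under every alternative run, the exception being TGFB1. Its log2 difference turned from 0.07 to -0.16 without embelin replicate 2. The groups of the other 8 did not overlap, so leaving out 1 array could not turn their direction. The t-test, the trend and robust fit, the blocks and the array position left the difference itself unchanged. Direction in those runs was therefore fixed beforehand. The 4 calls (INHBA 5.31, BMP6 2.95, GDF15 2.08, BMP4 -3.34) were kept with quantile normalization, normexp, the deposited table, the mean over probes and the percentile without outlier spots. They were lost, at the same values, without the filter on dim probes, in the methods' t-test, with the array position, with the background block and with the replicate block, as no gene or probe of the array passed in those fits (0 ligands, genes or probes called). The 4 fits that each left out 1 array kept no call either. Over those 4 fits the changes ran from 5.07 to 5.55 for INHBA, 2.91 to 2.997 for BMP6, 1.91 to 2.24 for GDF15, -3.57 to -3.11 for BMP4 and -0.16 to 0.31 for TGFB1. In the other fits with no call, genes at an unadjusted p under 0.05 were counted. Without the filter they were 2345 of 30969 genes and 5 of 10 ligands, since INHBE was then tested too. The remaining fits tested 17298 genes and 9 ligands each. Their counts were 2737 and 5 in the methods' t-test and 3684 and 7 with the replicate block. With position they were 3004 and 7, and with the background block 2729 and 5. Nothing is read from these counts. Adjusted p over all alternatives ran from 0.00056 to 0.327 for INHBA, 0.00087 to 0.327 for BMP6, 0.0014 to 0.384 for GDF15 and 0.0033 to 0.332 for BMP4 (limma or the methods' t-test). At the methods' threshold of 2-fold and an unadjusted p under 0.05, the methods' t-test gave 527 genes higher and 472 lower, among them 3 ligands higher and 1 lower, and 0 genes after Benjamini-Hochberg adjustment.

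The calls over all genes went from 320 to 700 with normexp, 186 in the deposited table, 764 with the filter on all 4 arrays, 1061 with trend and robust, and 218 as the mean over probes. Calls over single probes went from 282 to 819, 158, 768 and 1296 in the first 4 of these. The share of calls that were higher was 69.1%, against 54.8% with the filter on all 4 arrays, 53.3% with trend and robust, 60.3% with normexp, 72.9% with quantile normalization, 74.3% as the mean over probes and 76.3% in the deposited table. The ligands called were 2 with the filter on all 4 arrays, where 764 of 15542 genes were called and INHBA, BMP4 and GDF6 were not tested. They were 5 with trend and robust, where 1061 of 17649 genes were called and INHBB (-0.95) joined. Calls rose over the whole array in both fits, so nothing is read from these ligand counts. Of the other called genes of the pathway, BAMBI was called in 7 of 16 alternatives, TGFBR3 in 4 of 15 and ATOH8 in 1 of 15, all in the same direction.

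The replicate number as a block gave 0 calls, with adjusted p (limma) of 0.066 for INHBA and BMP4, 0.067 for BMP6 and 0.085 for GDF15. Deviations from the group means correlated at r = 0.175 between samples of the same number, and 2 pairs are too few to tell whether the numbers pair the samples. The INHBE probe was well above background on 1 array of each group, and the control arrays of the kept GDF6 probe stood at 4.56 and 8.22, so that neither difference is measured with precision.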
